A study of Mus musculus with 23 samples.

Results

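The integrin and laminin genes were described across 23 murine pancreatic ductal adenocarcinoma (PDAC) cell lines, with 1 expression array per line. Members were chosen by name: every gene whose probe set carries a single platform symbol of an integrin alpha subunit, an integrin beta subunit or a laminin chain. This gave 34 genes (16 alpha subunits, 8 beta subunits and 10 laminin chains) of 18193 genes with such a probe set. They are measured by 73 probe sets, sets of short probes that each report 1 transcript, and 20 of the genes have more than 1. The probe set with the highest mean over the lines stands for its gene. No values of Itga11 and Itgad were used here.

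All lines were untreated cultures at low passage. The 11 lines whose names begin with ASC, B, HEP, HEP2, LN1, PUL or PUL3 were taken as lines from metastases, and the 12 PPT lines as lines from primary tumours. By the numbers in their names they came from 14 mice. In the study's list a genotype is given for 13 of the lines, with a Cre recombinase that is active in the pancreas, under Ptf1a in 10 lines and under Pdx1 in 3. A Trp53 R172H allele is also listed for 6 of these lines (2 metastasis and 4 primary tumour lines), a R26 Tva-lacZ allele for 5 and a PCNA fLuc allele for 4. A genotype of the other lines was not used here. Since 5 mice gave 14 of the lines, the mouse was kept as a random block in every fit. A line is 1 culture and has no repeat array, so p-values measure the spread between lines.

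Integrins are receptors made of an alpha and a beta chain that span the plasma membrane and join the extracellular matrix to the actin or keratin cytoskeleton. The pair decides the ligand: the alpha subunits Itga1 and Itga2 make collagen receptors with Itgb1, Itga3, Itga6 and Itga7 make laminin receptors, and Itga5 and Itgav make receptors for fibronectin, vitronectin and other proteins with an RGD motif. Laminins are trimers of an alpha, a beta and a gamma chain and are the main glycoproteins of basement membranes, the sheets on which epithelia rest and through which carcinoma cells invade. Epithelial-mesenchymal transition (EMT), in which carcinoma cells lose keratins and E-cadherin and gain mesenchymal proteins, is known to go along with a change of both.

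The EMT state of a line was expressed as a score, the mean log2 signal of 7 mesenchymal markers minus that of 12 epithelial markers. The mesenchymal markers were Vim, Zeb1, Zeb2, Cdh2, Twist1, Sparc and Axl. The epithelial markers were Cdh1, Epcam, Esrp1, Grhl2, Krt8, Krt18, Krt19, Cldn4, Cldn7, Ocln, Rab25 and St14. The score ran from -2.40 in PPT-15272 to 6.99 in ASC-5193, with an SD of 2.42. Its widest gap lay between 2.51 and 4.62, with 17 lines below and 6 above (PPT-3250, PPT-5320, PPT-16992, ASC-53909, PPT-17728 and ASC-5193). All 6 have a listed genotype, with Trp53 R172H for ASC-5193 alone. Of the lines below the gap with a listed genotype, all but PPT-5671 and PPT-5748 have it. R26 Tva-lacZ is listed for PPT-3250, PPT-16992, ASC-53909 and PPT-17728 above the gap and for PPT-5671 alone below it. These alleles were thus uneven along the score, and their part in the results was not tested. Cdh1 (E-cadherin) lay between 2.22 and 6.48 in the 6 lines and between 10.23 and 11.81 in the 17. Cdh1, Krt8 and Krt18 are part of the score, so their levels are no separate evidence for the split. ASC-5193 also had Krt18 and Krt8 at 2.46 and 3.44, so the keratins that define the epithelial lineage were near or below background there. The array medians ranged from 3.58 to 3.89. Of 8 fibroblast markers, Pdgfrb lay between 7.30 and 9.85 in the 6 lines. In the 17 it was above 7 only in PPT-5486 (10.59), followed by B-152727 (6.52) and LN1-15272 (6.46). The markers did not all follow the gap. Col1a1 was at 3.15 in PPT-16992 and 3.67 in ASC-5193. In PPT-3250, PPT-5320, ASC-53909 and PPT-17728 it was at 7.18, 9.68, 11.07 and 10.3. Des spanned 4.71 to 5.82 over all lines. The mean of the 8 was 5.18 to 8.59 in the 6 lines and 3.28 to 8.38 in the 17, the highest of these being PPT-5486. Of 6 endothelial markers, Pecam1, Cdh5, Tie1 and Emcn did not exceed background in any line, whereas Kdr did in 23 (highest 4.78) and Cldn5 in 12 (highest 3.82). Of 8 leukocyte markers, the pan-leukocyte gene Ptprc exceeded background in no line and Cd68, Csf1r, Laptm5 and Cd3e in all 23, with highest values of 7.37, 6.12, 5.51 and 4.39. Cd79a did so in 1 line, Lyz2 in 21 and Tyrobp in 2, the myeloid genes Lyz2 and Tyrobp reaching 8.06 and 3.93 in HEP-5123 and 8.54 and 4.59 in PPT-17728. The mean of the 8 leukocyte markers was 3.44 to 4.72 in the 6 lines and 3.63 to 4.38 in the 17. Of 4 muscle markers, Myog (6.96), Myh3 (5.53) and Actc1 (6.38) were highest in ASC-53909, and Ckm spanned 3.73 to 4.60 over all lines. The mean of the 4 was 5.81 in ASC-53909 and 4.19 or less in every other line. The part of cells of these types in the results was not tested.

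A signal was counted as above background when it exceeded 3.43 on the log2 scale, the 95th percentile of 43 probe sets of olfactory receptor genes. By this measure 17 members were above background in every line, 12 in some lines and 5 in no line, and each line held between 20 and 24 of the 34. Of all values on the arrays 54.6% exceeded this background, so the measure is lenient and these counts do not set the members apart. The constant set held 7 alpha subunits (Itga2b, Itga3, Itga5, Itga6, Itga7, Itga9 and Itgav), 5 beta subunits (Itgb1, Itgb3, Itgb4, Itgb5 and Itgb7) and 5 laminin chains (Lama2, Lama5, Lamb1, Lamb2 and Lamc1). Itga2b hardly varied, from 5.53 to 6.12 (SD 0.18), and whether its signal is specific was not tested. Of 4 platelet and megakaryocyte markers, Gp9 (highest 4.68) and Gp1bb (4.72) exceeded background in 23 lines. Pf4 did so in 5 (4.63) and Ppbp in 12 (11.93 in PPT-15272). Itgal, Itgam and Itgax, the alpha subunits of leukocytes, Itgae of intraepithelial lymphocytes and Lama1, a laminin chain of the early embryo, made up the 5 below background throughout. Members varied widely. The SD over the lines was above 1 for 10 of 34 members, against 6.2% of all 45037 probe sets. Of the members 21 spanned more than 2 on the log2 scale, a span not counted over all probe sets.

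**Figure D1:**
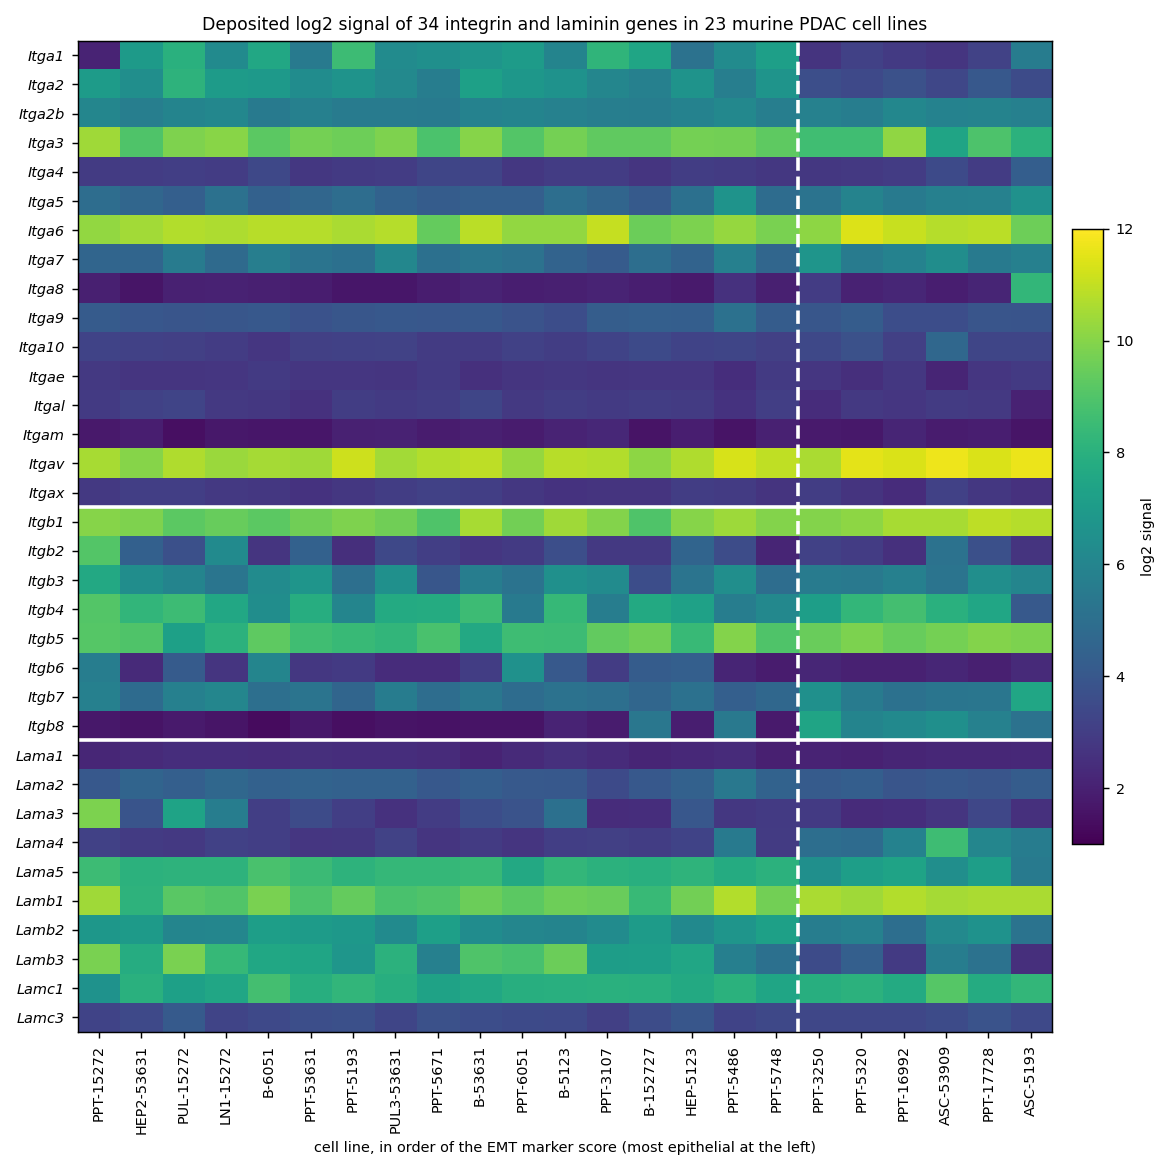
Deposited log2 signal of the 34 members (rows: integrin alpha, integrin beta and laminin genes, divided by white lines) in the 23 lines (columns, by EMT score from low to high; the dashed line is the widest gap of the score). Itga6, Itgav and Itgb1 lie between 8.96 and 11.70 in every line, whereas Itgb8 and Lama4 are high in the lines right of the gap and Itga2 is low there.

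Among the laminin receptors, the subunits of the hemidesmosome integrin were present throughout. Itga6 ranged from 9.41 to 11.42 with a median of 10.62, and Itgb4, its partner at hemidesmosomes, from 4.08 to 9.06 with a median of 7.69. The lowest Itgb4 signal belonged to ASC-5193, followed by 5.52 in PPT-6051. Itga3 ranged from 7.41 in ASC-53909 to 10.45 in PPT-15272. Itga7, best known from muscle, spanned 4.14 to 6.73. Itga6, Itga3, Itga7 and Itgb1 were therefore above background together in each of the 23 lines.

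The collagen receptors differed more. Itga1 was above background in 17 lines, with a median of 6.29 over all lines and a highest value of 8.52 in PPT-5193. The 6 lines without it were PPT-15272 at 2.11 and 5 of the 6 lines above the gap, at 2.67 to 3.16. ASC-5193, the sixth, had 5.64. Itga2 was above background in 21 lines, and PPT-5320 and ASC-53909 held neither Itga1 nor Itga2 above background. Itga10, a collagen receptor of cartilage, exceeded background in 3 lines, with 4.66 in ASC-53909, 3.72 in PPT-5320 and 3.47 in B-152727.

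The partners of Itgav split the lines. Itgav itself stayed between 10.00 and 11.70, and Itgb3 and Itgb5 were above background in every line. Itgb6 and Itgb8, whose receptors with Itgav bind and activate latent TGF-beta, were each above background in a minority of the lines. Itgb6 exceeded background in 7 lines: PPT-6051 (6.55), B-6051 (6.0), PPT-15272 (5.68), HEP-5123 (4.35), B-152727 (4.2), PUL-15272 (4.17) and B-5123 (4.06). They came from 3 mice, and the other 16 lines lay between 1.85 and 3.0. Itgb8 exceeded background in 8 lines, between 5.15 and 7.43 in the 6 lines above the gap and at 5.45 in PPT-5486 and 5.38 in B-152727. In the other 15 lines it lay between 1.34 and 2.09, so the distribution had no intermediate values. Itgb8 was above background without Itgb6 in 7 lines, Itgb6 without Itgb8 in 6, both in B-152727 alone and neither in 9.

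Some subunits stood out in single lines. Itga8, an RGD receptor of smooth muscle and kidney mesenchyme, had 8.28 in ASC-5193, and the next line, PPT-3250, had 2.94. The second probe set of Itga8 did not exceed background in any line. ASC-5193 also had the highest Itga4 (4.29) and Itgb7 (7.52), subunits that pair with each other on lymphocytes. Itga4 was above background in ASC-53909 (3.47) besides. Itgb2, the leukocyte beta subunit, reached 9.05 in PPT-15272 and 6.27 in LN1-15272 of the same mouse, against a median of 3.12 over all lines. Of its alpha partners, Itgal, Itgam and Itgax did not exceed 3.31 in any line, and no values of Itgad were used. Of the leukocyte markers, Ptprc was at 1.55 in PPT-15272 and 2.19 in LN1-15272, and Tyrobp at 3.1 and 2.56, below background. Cd68 (5.59 and 5.18), Csf1r (5.53 and 5.26), Laptm5 (5.03 and 5.01), Cd3e (3.96 and 4.13) and Lyz2 (3.58 and 4.34) exceeded it in both. Cd79a was at 3.51 and 3.15. Whether leukocytes contributed to the Itgb2 signal was not tested. PPT-15272 had the highest value of 6 members in all (Itga3, Itgb2, Itgb3, Itgb4, Lama3 and Lamb3).

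The laminin alpha chains formed a similar pattern. Lama3, an alpha chain of epithelial basement membranes, was above background in 9 lines, all below the gap. Its signal was 9.81 in PPT-15272, 7.39 in PUL-15272, 5.68 in LN1-15272 and 5.04 in B-5123, and the other 5 lay between 3.53 and 3.97. Lama4, a chain of vascular and mesenchymal basement membranes, was above background in 7 lines: 8.59 in ASC-53909, 6.07 in PPT-17728, 5.89 in PPT-16992, 5.64 in ASC-5193, 5.47 in PPT-5486, 4.99 in PPT-3250 and 4.83 in PPT-5320. No line had both chains above background, and 7 lines had neither. Both genes have a second probe set that exceeded background in no line. Lama5, the chain of most adult epithelial basement membranes, lay between 5.52 and 8.83 with a median of 8.07. Lamb3 ranged from 2.50 in ASC-5193 to 9.78 in PPT-15272, a span of 7.28, and Lamc1, the gamma chain of most laminins, from 6.60 to 9.12. The lowest Lamc1 was that of PPT-15272, the line with the highest Lama3 and Lamb3.

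Counted as complexes, 6 Itgb1 receptors (with Itga3, Itga5, Itga6, Itga7, Itga9 or Itgav), Itgav with Itgb3 or Itgb5, and Itga6 with Itgb4 had all chains above background in the 23 lines, as had Itga2b with Itgb3 and laminins of Lama5 or Lama2 with Lamc1 and Lamb1 or Lamb2. With a higher background of 4.28, the 99th percentile of the olfactory receptor probe sets, this held in all 23 lines for Itgb1 with Itga3, Itga6 or Itgav, for Itgav with Itgb5 and for Lama5 with Lamc1 and Lamb1 or Lamb2, and for the Lama2 trimers in 11 lines. The collagen receptor of Itga2 and Itgb1 was covered in 4 of the 6 lines above the gap and in 17 of the 17 below it, and that of Itga1 and Itgb1 in 1 of 6 and 16 of 17. For Itgav and Itgb8 the counts were 6 of 6 and 2 of 17, and for Itgav and Itgb6 0 of 6 and 7 of 17. For Lama4 with Lamb1 and Lamc1 they were 6 of 6 and 1 of 17, and for Lama3 with Lamb3 0 of 6 and 9 of 17. At 4.28 the counts became 0 of 6 and 17 of 17 for Itga2 with Itgb1. For Itgav with Itgb6 and for Lama3 with Lamb3 they became 0 of 6 and 4 of 17. The counts of the other complexes named by gap did not change. These counts concern transcripts, since protein was not measured on the arrays.

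To ask how the repertoire goes with the EMT state, the log2 signal was fitted on the EMT score in limma with the mouse as a random block and Benjamini-Hochberg adjustment over all 45037 probe sets. Slopes are given per SD of the score and are positive where the signal is higher in more mesenchymal lines. At an adjusted p under 0.05, 14 of 34 members were called, against 10.1% of all probe sets. Of these, 9 rose with the score, against 5.28% of all probe sets, and 5 fell, against 4.86%. Among probe sets with a mean above background the shares were 12 of 24 members and 15.4% of all. Of the fibroblast markers described above, Pdgfrb was higher in the 6 lines than in every line below the gap but PPT-5486. The mean of the 8 markers overlapped between lines above and below the gap, and their part in these slopes was not tested. The median slope was -0.03 over the members and -0.004 over all probe sets. The rising members were 4 alpha subunits, 3 beta subunits and 2 laminin chains, and the falling ones 2 alpha subunits and 3 laminin chains.

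Lamb3 had the steepest fall and Itgb8 the steepest rise. Lamb3 had 2.50, 3.93 and 5.65 (lowest, median and highest) in the 6 lines above the gap, against 5.04, 7.57 and 9.78 in the 17 below it, and its slope was -1.79 (SE 0.23, adjusted p = 2.01e-05). The overlap came from ASC-53909 and PPT-17728 above the gap and PPT-5748 below it. Itgb8 had 5.15, 6.11 and 7.43 in the 6 lines, against 1.34, 1.69 and 5.45 in the 17, with a slope of 1.83 (SE 0.25, adjusted p = 4.04e-05). Here the groups overlapped only through PPT-5486 and B-152727.

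The signal of Itga2, the collagen receptor subunit, was 3.34, 3.59 and 4.01 in the 6 lines, against 5.66, 6.63 and 8.12 in the 17, and its slope was -1.28 (SE 0.14, adjusted p = 3.47e-06). The groups did not overlap. Lama5 had 5.52, 6.82 and 7.37 in the 6 lines, against 7.65, 8.12 and 8.83 in the 17, also without overlap, with a slope of -0.69 (SE 0.09, adjusted p = 2.05e-05). Separation of this kind was seen for these 2 of 34 members and for 1.15% of all probe sets. Lama4 had 4.83, 5.77 and 8.59 in the 6 lines, against 2.69, 3.01 and 5.47 in the 17, with a slope of 1.22 (SE 0.20, adjusted p = 0.000367), and PPT-5486 was the sole line below the gap within the range of the 6.

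Upstream sequence of the most strongly called members is shown because 4 of them moved in opposite directions with the same score. The windows reach from 250 bases before to 50 bases after the RefSeq start (GRCm38.p6), each written 5′ to 3′ on the strand of its gene. Capitals mark CAGGTG or its reverse complement CACCTG, the E-box recognised by repressors of the Zeb and Snail families, which was the only motif searched. Of the Lamb3 windows the one with more matches is shown.
Itgb8 (chr12:119238227-119238526, minus strand): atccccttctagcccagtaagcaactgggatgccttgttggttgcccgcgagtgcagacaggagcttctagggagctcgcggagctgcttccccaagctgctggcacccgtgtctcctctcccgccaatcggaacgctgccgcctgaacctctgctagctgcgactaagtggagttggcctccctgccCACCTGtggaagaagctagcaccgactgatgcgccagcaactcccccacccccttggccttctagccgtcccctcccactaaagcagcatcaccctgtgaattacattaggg
Itga2 (chr13:114932051-114932350, minus strand): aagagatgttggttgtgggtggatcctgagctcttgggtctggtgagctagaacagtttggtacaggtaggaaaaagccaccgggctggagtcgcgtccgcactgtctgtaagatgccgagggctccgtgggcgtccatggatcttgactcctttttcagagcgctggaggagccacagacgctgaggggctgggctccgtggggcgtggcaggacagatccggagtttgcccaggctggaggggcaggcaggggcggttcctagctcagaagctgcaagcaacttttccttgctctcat
Lamb3 (chr1:193301993-193302292, plus strand): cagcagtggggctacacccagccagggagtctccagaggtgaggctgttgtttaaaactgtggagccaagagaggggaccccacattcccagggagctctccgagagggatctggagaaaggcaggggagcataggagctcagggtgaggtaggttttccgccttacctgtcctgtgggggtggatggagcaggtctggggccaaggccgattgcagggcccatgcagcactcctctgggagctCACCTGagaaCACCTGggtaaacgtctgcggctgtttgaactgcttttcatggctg
Lama5 (chr2:180225810-180226109, minus strand): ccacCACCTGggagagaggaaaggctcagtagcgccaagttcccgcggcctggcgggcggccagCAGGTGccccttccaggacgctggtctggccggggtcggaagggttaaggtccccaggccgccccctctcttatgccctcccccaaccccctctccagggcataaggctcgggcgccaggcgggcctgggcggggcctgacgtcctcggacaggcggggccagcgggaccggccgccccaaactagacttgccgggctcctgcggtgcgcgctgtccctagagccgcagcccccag
The window of Itgb8, which rose, has 1 match, and those of Lamb3 and Lama5, which fell, have 2 each. The window of Itga2, which also fell, has 0. A match was found in 20.2% of the 32851 windows in the table and in 7 of the 25 windows of 22 members. Per gene, it was found for 2 of 7 rising members with a window (Itgb5 and Itgb8), for 3 of 4 falling members (Itga3, Lama5 and Lamb3) and for 2 of 11 members that were not called (Itga9 and Itgb6). The match was thus present and absent in both directions.

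The other called receptors were spread over several ligands. Itga5, the fibronectin receptor subunit, had 5.2, 5.83 and 6.55 in the 6 lines above the gap, against 4.12, 4.61 and 6.64 in the 17 below it (slope 0.49, SE 0.11, adjusted p = 0.00622), and PPT-5486 held the highest value. Itgav rose by 0.33 per SD (SE 0.07, adjusted p = 0.00467) and Itgb5, its partner in the vitronectin receptor, by 0.48 (SE 0.13, adjusted p = 0.0199). Itgb1, the common beta subunit, rose by 0.32 (SE 0.10, adjusted p = 0.0421). Of the laminin receptors, Itga3 fell, with a slope of -0.45 (SE 0.12, adjusted p = 0.0173), and Itga7 rose, with a slope of 0.38 (SE 0.12, adjusted p = 0.0466). Itga6 did not follow the score, with a slope of -0.01 (SE 0.12, adjusted p = 0.968), nor did Itgb4 pass (slope -0.34, SE 0.25, adjusted p = 0.435). The slope of Itga8, 0.79 (SE 0.24, adjusted p = 0.0378), rested on ASC-5193: without its mouse the slope was 0.14, which did not pass.

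Among the laminin chains, Lamb1 rose by 0.47 per SD (SE 0.13, adjusted p = 0.0235), with 10.44, 10.61 and 10.74 in the 6 lines, against 8.13, 9.41 and 10.72 in the 17. The 6 lines lay at the upper end of the range, together with PPT-5486 and PPT-15272 (10.43). Lama3 had a slope of -1.05 (SE 0.30, adjusted p = 0.0267), and without PPT-15272 alone it was -0.68 (adjusted p = 0.0702), which did not pass. Its 6 values above the gap lay between 2.34 and 3.35, below background, as did 8 of the 17 below it. Itgb8 was below background in 15 of the 23 lines, Lama4 in 16 and Itga8 in 22, and for these members too the slope is a fit to signals of which many have no measured level. Just outside the threshold were Lamb2 (slope -0.36, adjusted p = 0.0556) and Itgb6 (slope -0.71, adjusted p = 0.0562), followed by Itgal (slope -0.15, adjusted p = 0.0707), which was below background in every line. The second probe set of Itgb6, above background in 3 lines, passed in the same direction (slope -0.41, adjusted p = 0.0476). Itga1 had a slope of -0.97 (SE 0.38, adjusted p = 0.112). Of the 14 called members 10 have several probe sets, and for 5 of them (Itga3, Itgb1, Itgb5, Lama5 and Lamb1) another probe set was called in the same direction and for 0 in the opposite one.

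**Figure D2:**
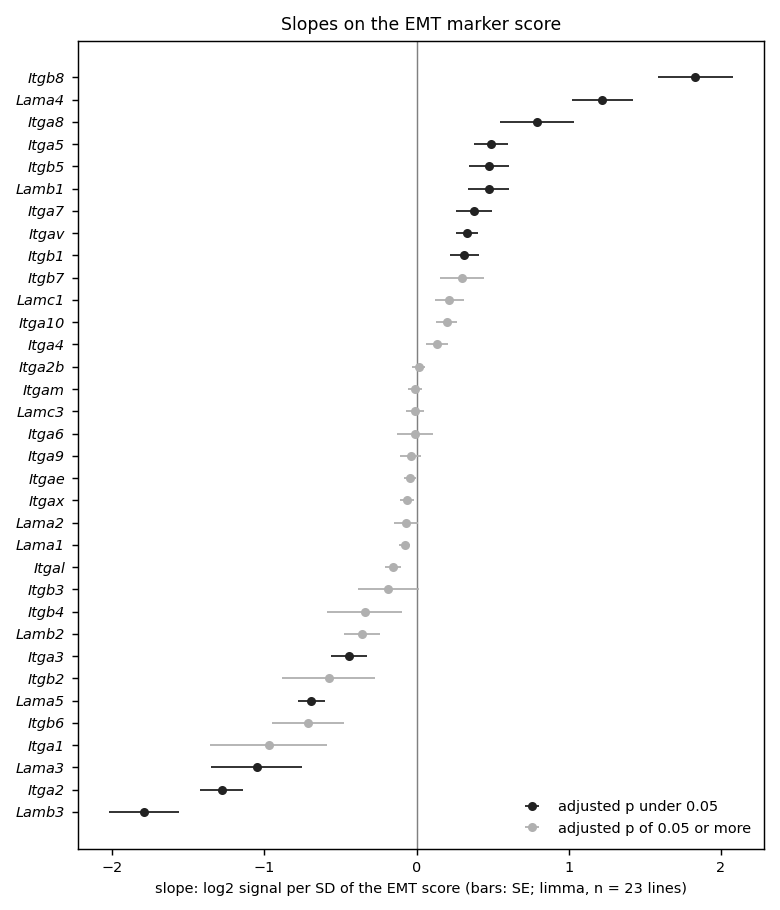
Slope of the log2 signal per SD of the EMT score for the 34 members (points; bars, SE; limma over 23 lines with the mouse as a random block), black where the adjusted p is under 0.05. Itgb8 (1.83) and Lama4 (1.22) lie at the upper end and Lamb3 (-1.79) and Itga2 (-1.28) at the lower end, with Itga6 (-0.01) near 0.

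No member was called within either set of lines. Within the 17 lines below the gap 0 of 34 members and 44 of 45037 probe sets were called. The slope of Lama3 there was -2.86 (SE 0.57, adjusted p = 0.0566), steeper than over all lines (-1.05). Every other called member had a slope of smaller size there than over all lines. The values were -1.72 for Lamb3 (SE 0.49), 1.36 for Itgb8 (SE 0.49) and 0.38 for Itgb5 (SE 0.32). They were -0.59 for Itga2 (SE 0.26), -0.23 for Lama5 (SE 0.14), 0.40 for Lama4 (SE 0.27) and 0.03 for Lamb1 (SE 0.30). For Itgav, Itga5, Itga3, Itgb1, Itga7 and Itga8 they were 0.21, 0.22, -0.26, 0.06, 0.07 and 0.12. Within the 6 lines above the gap 0 members and 0 probe sets were called, and the slope of Itgb8 was -1.57 (SE 0.54, adjusted p = 0.378).

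With the mouse as a fixed block, which compares lines of the same mouse alone, only Itgb8 of the 34 was called (slope 1.51, adjusted p = 0.0494). Lamb3 then had a slope of -1.49, Lama3 of -1.39, Itga2 of -0.97, Lama5 of -0.71, Itga3 of -0.47 and Itga8 of 1.62. The slope was 0.69 for Lama4, 0.09 for Itgav, 0.07 for Itgb1 and 0.06 for Lamb1. Of the lines above the gap, only ASC-5193 shares its mouse with another line, PPT-5193, and their scores were 6.99 and 0.51. Each of the other lines above the gap is the only line of its mouse and adds nothing to the fixed-block slopes. Across the gap these slopes therefore rest on this pair alone, and EMT state and mouse are otherwise not separable there. Without ASC-5193, the most mesenchymal line, 9 members were called, and Itga3, Itga7, Itga8, Itgb1 and Lamb1 were not. The slope of Itga8 was 0.15 without it, while those of Itga3 (-0.40), Itga7 (0.42), Itgb1 (0.30) and Lamb1 (0.49) lay close to the values over all lines. Leaving out mouse 15272, with 4 lines, ended the calls of Lama3 (slope -0.33), Itga3 (-0.38) and Itga7 (0.42). Itga7 lost its call without any 1 of 10 mice and Itgb1 without any 1 of 8, whereas Itga2, Itga5, Itgav, Itgb8, Lama4, Lama5 and Lamb3 kept it without any of the 14 mice.

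**Figure D3:**
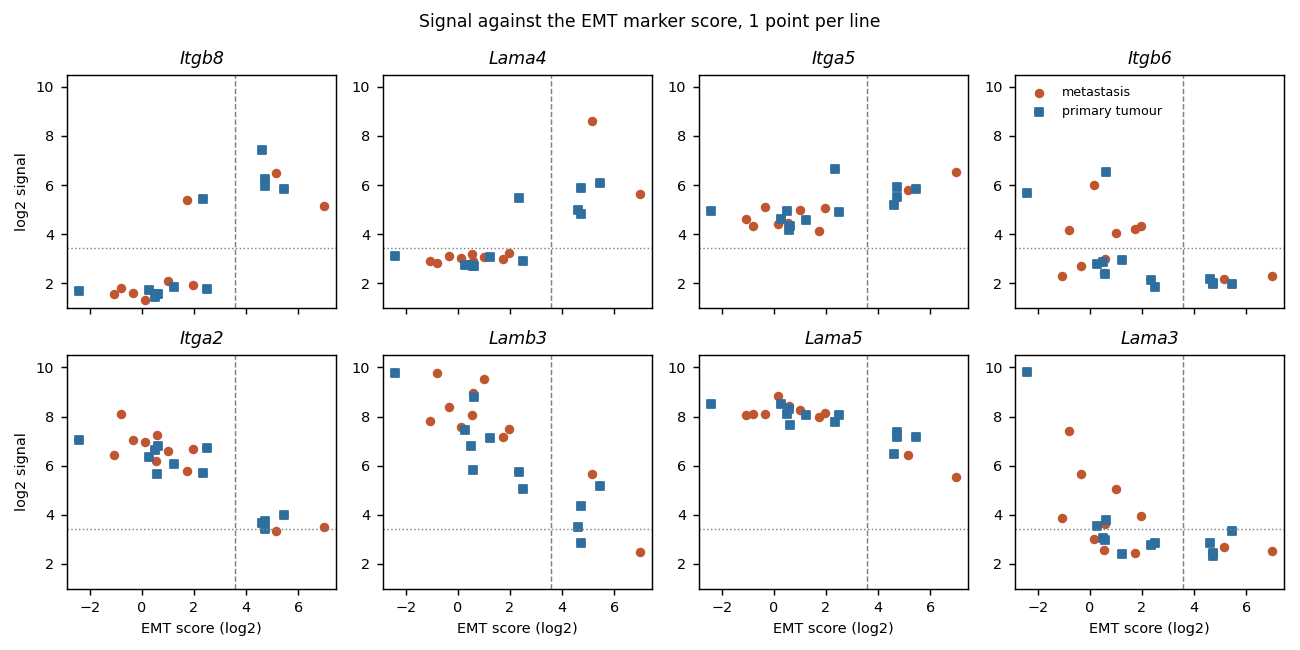
Log2 signal of 8 members (vertical axes) against the EMT score in log2 units (horizontal axes), 1 point per line, circles for metastasis and squares for primary tumour lines; dotted lines mark background (3.43) and dashed lines the widest gap of the score. Itga2 lies at 3.34 to 4.01 right of the gap and at 5.66 to 8.12 left of it, and 2 lines left of the gap share the high Itgb8 signal.

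Members also varied together across the lines. These correlations are descriptions over 23 lines that share mice, and over 17 of them below the gap. Itga2 went with Lamb3 (r = 0.86 over 23 lines and 0.66 over 17) and against Itgb8 (-0.88 and -0.50) and Itgb5 (-0.77 and -0.73). Itgb8 went with Lama4 (0.83 and 0.69), and Lama4 with Itga5 (0.78 and 0.88). Of the 17 lines PPT-5486 alone had Lama4 above background, and without it these values over the other 16 were 0.14 and 0.45. Itgav went with Lamb1 (0.79 and 0.73). The leukocyte subunit Itgb2 went with Lama3 (0.77 and 0.81), with PPT-15272 highest in both, and without that line r was 0.53 over the other 16 below the gap. PPT-5486 is the line below the gap that had both Itgb8 and Lama4 above background, and it also had the highest Itga5, Itga9 (5.11) and Lama2 (5.39) of all lines.

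Around the receptors, some transcripts of the proteins that couple integrins to actin rose with the EMT score. Of 20 genes listed as adhesion machinery 18 were measured, and 5 rose, against 5.28% of all probe sets, 0 fell, against 4.86%, and 13 did not pass. Fermt2 (kindlin-2, an integrin activator) had a median of 10.27 in the 6 lines above the gap, against 8.18 in the 17 below it (slope 0.98, SE 0.14, adjusted p = 6.43e-05). Vcl (vinculin) had medians of 11.42 and 10.69 (slope 0.33, adjusted p = 0.00549), Itgb1bp1, a regulator of Itgb1, 8.82 and 8.40 (slope 0.25, adjusted p = 0.0186), and Zyx (zyxin) 8.50 and 7.23 (slope 0.50, adjusted p = 0.0366). Ilk, the integrin-linked kinase, was the fifth (slope 0.28, adjusted p = 0.0467). Talin 1 (Tln1) had a slope of 0.22 and paxillin (Pxn) one of -0.004, and neither passed.

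Of 22 listed partners of laminins and integrins in the basement membrane 21 were measured. At an adjusted p under 0.05, 0 were called as rising, against 5.28% of all probe sets, and 3 as falling, against 4.86%. At an unadjusted p under 0.05 there were 12 of the 21, in both directions, against 24.5% of all probe sets. Bcam, a laminin receptor that binds Lama5, had a median of 4.45 in the 6 lines, against 6.28 in the 17 (slope -0.89, SE 0.12, adjusted p = 6.17e-05). Sdc1 (syndecan-1) had 10.72 and 11.18 (slope -0.27, adjusted p = 0.00231) and Agrn (agrin) 7.33 and 9.01 (slope -0.68, adjusted p = 0.0134). Ntn4, which binds laminin gamma chains, had 7.79 and 6.31 (slope 0.68, adjusted p = 0.061). Fn1 (fibronectin) had 11.89 and 10.04 (slope 0.97, adjusted p = 0.0639) and Tnc 8.10 and 3.75 (slope 1.34, adjusted p = 0.0893). The slopes of Ntn4, Fn1 and Tnc were positive but did not pass. The median slope was 0.21 over this list and 0.18 over the adhesion machinery. Dag1 (dystroglycan) had a slope of -0.03 and did not pass.

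Whether the repertoire differs by site was asked by fitting metastasis minus primary tumour lines. limma called 0 of 34 members and 0% of all probe sets at an adjusted p under 0.05. At an unadjusted p under 0.05 there was 1 member, Itga4, against 3.66% of all probe sets. Itga4 had 2.68, 2.99 and 4.29 (lowest, median and highest) in metastasis lines, against 2.78, 2.89 and 3.31 in primary tumour lines, a difference of 0.33 (SE 0.13, unadjusted p = 0.0142, adjusted p = 0.9999). The values overlapped, and Itga4 was above background in 2 metastasis lines, both with the prefix ASC.

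The other members with the smallest p by site differed by no more than their spread. Lamc1 had a median of 7.92 in metastasis lines and 7.90 in primary tumour lines (difference 0.34, SE 0.18). For Lamb1 the medians were 9.55 and 10.04 (difference -0.42, SE 0.29), for Itgb5 8.53 and 9.24 (-0.38, SE 0.29), and for Lamb3 7.80 and 5.77 (0.88, SE 0.78). Itga1 was above background in 10 of 11 metastasis and 7 of 12 primary tumour lines (1.02, SE 0.78). Of the lines above the EMT gap 2 came from metastases and 4 from primary tumours. For Itgb7 the difference was 0.36 (SE 0.29), for Itgax 0.11 (SE 0.09), for Itga8 0.60 (SE 0.53) and for Itga3 -0.22 (SE 0.27). The adjusted p was 0.9999 for each of these 9 members.

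**Figure D4:**
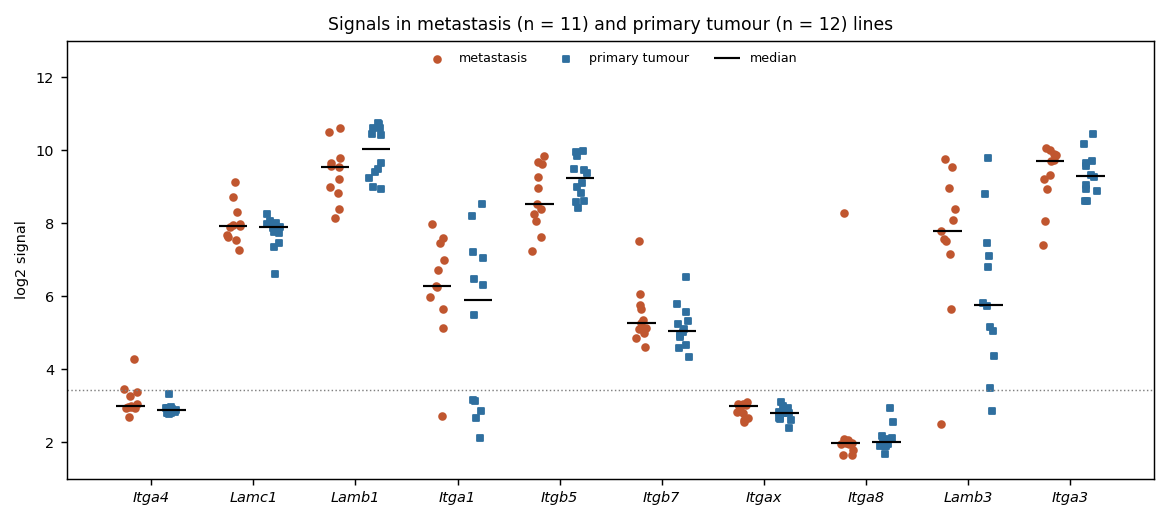
Log2 signal in metastasis lines (circles, n = 11) and primary tumour lines (squares, n = 12) for the 10 members with the smallest p by site, 1 point per line, with the median of each group as a bar; the dotted line marks background (3.43). The groups overlap for every member shown, and the single high points of Itga4 and Itga8 are ASC-5193.

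Within the 4 mice that gave lines of both kinds, the metastasis mean minus the primary tumour line had the same sign in all 4 for 3 of 34 members, against 11% of all probe sets. It was lower for 2 of them, against 5.06%, and higher for 1, against 5.9%. The share of members was near that of all probe sets. The 2 lower ones were Itgb6 (differences from -1.99 to -0.22) and Lama3 (-4.63 to -0.19), and the higher one was Itga7 (0.08 to 0.74). Itgb6 did not exceed background in any line of 2 of the 4 mice, nor Lama3 in any line of 1, so the sign there compares background signals. Over all lines the difference of Itgb6 was 0.24 (SE 0.51). In mouse 15272 the metastasis lines had 7.39, 5.68 and 2.46 for Lama3 and the primary tumour line had 9.81. In the same mouse Itga1 was at 7.99, 7.45 and 6.26 in metastasis lines and at 2.11 in the primary tumour line, and Itgb8 at 5.38 in B-152727 and at 1.80 or less in the other 3. ASC-5193 had 3.52 for Itga2 and 2.50 for Lamb3, against 6.63 and 6.79 in PPT-5193 of the same mouse. B-6051 and PPT-6051 both had Itgb6, at 6.0 in the metastasis and 6.55 in the primary tumour line.

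**Figure D5:**
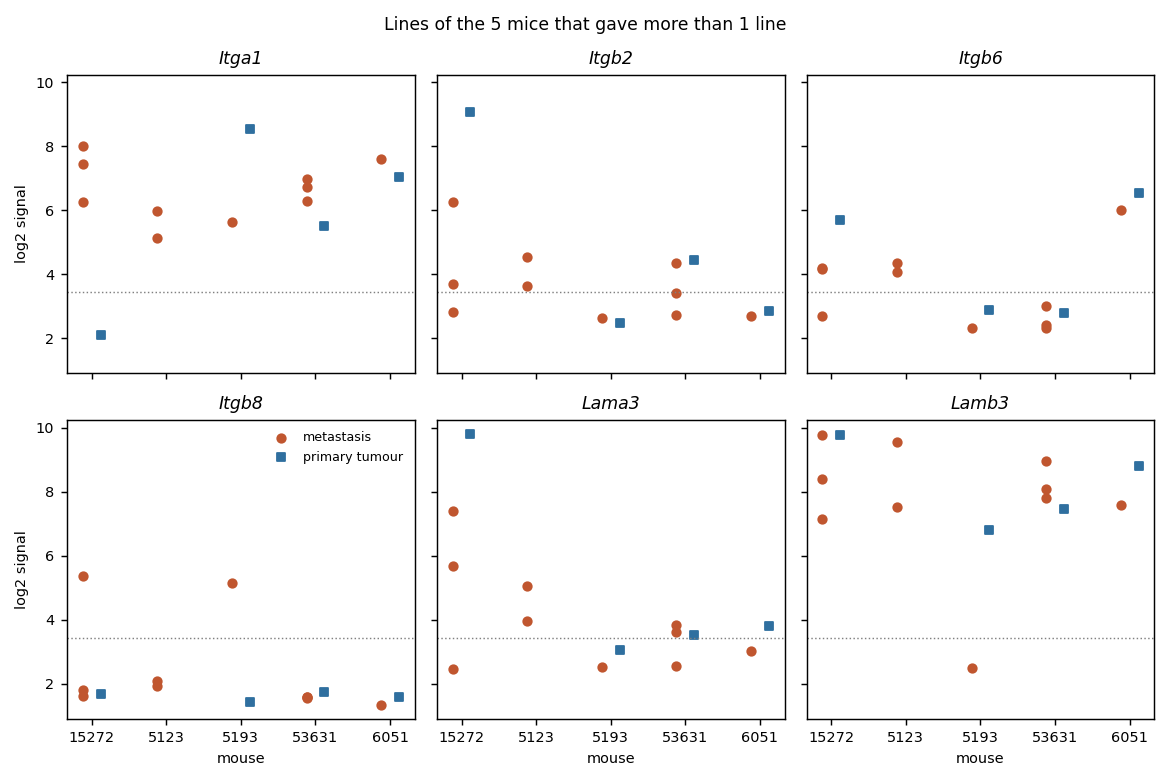
Log2 signal of 6 members (panels) in the lines of the 5 mice with more than 1 line (horizontal axis, mouse number), circles for metastasis lines, drawn left, and squares for primary tumour lines; the dotted line marks background (3.43). In mouse 15272 Itga1 is 6.26 or more in the metastasis lines and 2.11 in the primary tumour line, and Lama3 spans 2.46 to 9.81.

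Bez235 is a dual inhibitor of PI3K and mTOR, and the study measured its half-maximal inhibitory concentration (IC50) in each line. The log2 IC50 was used as a continuous covariate, and slopes are given per doubling of it. limma called 0 of 34 members and 0% of all probe sets at an adjusted p under 0.05. At an unadjusted p under 0.05 there were 3 members, against 5.48% of all probe sets. Itga6 ranged from 9.41 to 11.42 over the lines and had a slope of -0.38 (SE 0.11, unadjusted p = 0.00205, adjusted p = 0.822), and its second probe set gave -0.40 (unadjusted p = 0.00733). The slope of Itga6 was negative under every alternative run, and the adjusted p was 0.352 or more. That bound leaves out a fit on the rank of the IC50, in which Itga6 was not called either. The alternatives use the same lines or subsets of them, so the constant sign is no separate evidence. Itga4 had a slope of 0.20 (SE 0.08, adjusted p = 0.905) and Itga8 one of 0.72 (SE 0.31, adjusted p = 0.905). Both depended on ASC-5193: without the lines of its mouse the slope was 0.05 for Itga4 and -0.05 for Itga8.

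The next members by p on the IC50 were Itgb5 (slope 0.29, SE 0.18), Itga3 (-0.24, SE 0.16), Lama5 (-0.26, SE 0.19), Itgb8 (0.64, SE 0.50), Itga10 (0.11, SE 0.09), Lama4 (0.39, SE 0.36) and Itga2 (-0.35, SE 0.33), with adjusted p between 0.925 and 0.945. With the EMT score as a covariate the slope of Itga2 was 0.03. Of the members 16 had a positive and 18 a negative slope. Of the adhesion machinery and of the basement membrane partners 0 genes were called by site or on the IC50, and Tgfb1 had the smallest p by site in the second list (difference 0.56, SE 0.18, unadjusted p = 0.00525, adjusted p = 0.9999).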

How the data were processed

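RNA of 23 murine PDAC cell lines was hybridised to Affymetrix mouse genome arrays. For each array the authors deposited log2 signals of its probe sets. Their methods name VSN and the submitters' processing notes name RMA, so the normalization behind the signals is uncertain. These log2 values were used as deposited, without filter, for 45037 probe sets (64 controls left out). limma 3.58.1 in R 4.3.3 was run with the mouse as a random block (duplicateCorrelation; correlations 0.195 on the EMT score, 0.243 by site and 0.287 on the IC50) and tested on simulated data. The mouse comes from the line names: 15 pairs of lines of 1 mouse had a median correlation of 0.417, against -0.085 over 238 other pairs. B-152727 was taken as a line of mouse 15272. IC50 values came from the study's supplement, as a covariate without cutoff. Every member is accounted for, with statistics for those called or, below 10, the 10 with the smallest p. Up to 4 genes per list are named by p, and Ilk, Tln1, Pxn, Dag1, Fn1 and Tnc after their values were seen. Promoter sequences are from RefSeq (GRCm38.p6), with Python 3.11.15. Members, lists and alternatives were chosen with earlier results of these data known, the relation of Itga6 to the IC50 included. Some alleles and genes are not reported here. The number of arrays limits the precision.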

Additional observations from a re-analysis of the deposited data

How the results depend on the processing

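Of the 34 members, 14 were called on the EMT score. The count was 17 with no replicate block and 1 with the mouse as a fixed replicate block, where 203 probe sets were called in place of 4564. It was 6 on the Zeb1 signal alone (1209 probe sets), 8 to 15 when 1 mouse was left out (8 without the mouse of ASC-5193), 9 without line ASC-5193, and 0 within the 17 lines below the gap of the score (44 probe sets) and within the 6 above it (0 probe sets). Leaving out ASC-5193, PPT-15272 or PPT-5486, the splits at the gap and the higher background for complexes were chosen after seeing the data. The other settings gave counts within 1.5 times 14. Within the 6 lines above the gap, the slopes of Itgb8 (-1.57), Itga7 (-0.399) and Lama3 (0.0245) changed sign. By site and on the IC50 0 members were called in every setting. By site, signs changed with the mouse as a fixed replicate block for Itgb5 (0.08) and Lamb3 (-1.26), below the gap for Itga3 (0.046) and Itga8 (-0.0751), and for Itga8 without ASC-5193 (-0.164) and without the mouse of ASC-5193 (range over mice left out -0.196 to 0.875). On the IC50 they changed with the EMT score as a covariate for Itga2 (0.0332), below the gap for Itga8 (-0.0049) and Lama5 (0.0228), without ASC-5193 for both (-0.0354 and 0.0301) and without the mouse of ASC-5193 (over mice left out -0.0472 to 1.03 for Itga8 and -0.4002 to 0.0398 for Lama5). Settings with fewer lines or with mice as fixed terms leave fewer degrees of freedom; other causes were not tested. A background of 4.28 in place of 3.43 left 11 in place of 17 members above it in every line.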
